A study of Mus musculus with 66 samples.

Results

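DNA methylation in mammals is written and removed by a small set of enzymes. Dnmt1 copies methylation onto the new DNA strand after replication, and Uhrf1 brings it to hemimethylated CpG sites. Dnmt3a and Dnmt3b add methyl groups to unmethylated DNA, and Tet1, Tet2 and Tet3 oxidize 5-methylcytosine, which starts its removal. The transcript levels of these 7 genes, chosen by symbol from the 22489 genes of the mRNA-Seq table, were examined in C2C12 cells, a mouse myoblast line that forms muscle cells when serum is withdrawn. All 7 genes were above 0 FPKM (fragments scaled to transcript length and to the fragments mapped in a library, so that genes can be compared) in all 20 libraries.

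The study compared C2C12 cells that carry GFP-tagged histone H3 variants before and after differentiation. The 20 mRNA-Seq libraries came from 10 lines: wild-type C2C12 (WT), without a transgene, and 9 lines with doxycycline-inducible, N-terminally GFP-tagged H3t, H3.1, H3.2, H3mm7, H3.3, H3mm16, H3mm13, H3mm12 or H3mm11. The transgenes had been integrated by a transposon system and the cells selected and sorted for GFP, so these cells express an additional, tagged histone over their own genes. Each line gave 1 growth library, from cells in 20% fetal bovine serum, and 1 differentiated library, from cells kept for 48 h in 2% horse serum after confluence. No line had a replicate library, so the 10 lines stood in for replicates and every p-value below measures spread between lines, not within a line. The main limma fits took the libraries as unpaired, with line as a block only as an alternative. The later comparison of histone types pooled the spread of both states of the GFP-H3 lines. H3.1, H3.2 and H3t are here called H3.1/H3.2-type and the other 6 variants H3.3-type, after the histone that each resembles.

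The WT libraries stood apart from the other 18. Their summed FPKM values were 409300 in growth and 465200 after differentiation, against 583600 to 894100 in the GFP-H3 libraries, and 388 genes were at least 8-fold lower in both WT libraries than in any GFP-H3 library. None of the 7 genes was among these, but results are given with and without WT where WT moved them. The read depth of the libraries is unknown, because FPKM values keep no counts. The muscle labels held: of 8 myoblast and muscle markers, 6 were called higher after differentiation by the rule given below, against 8.87% of all genes tested. Among the 6, Myh3 and Ckm, at a mean of 0.217 and 0.375 FPKM in growth, reached the mean needed for testing through their differentiated libraries. Myog, which drives muscle differentiation, went from a mean of 8.95 FPKM to 648 FPKM. Of 10 markers of other cell types, only the endothelial cadherin Cdh5, which reached 7.53 FPKM, and the pluripotency factor Nanog, which reached 2.25 FPKM, exceeded 1 FPKM in any library. Both were lower after differentiation in 10 of 10 lines, Cdh5 at a mean of 2.53 and 0.624 FPKM and Nanog at a mean of 1.09 and 0.380 FPKM. Their part in the results below was not tested. The other 8, which mark blood, endothelial, epithelial, neural, liver and pluripotent cells, stayed at or below 0.221 FPKM.

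In mm9, the build to which the reads had been mapped, all 7 are protein-coding genes. Dnmt1 lies on chr9:20711650-20757317 on the minus strand and Uhrf1 on chr17:56442744-56462909 on the plus strand. Dnmt3a occupies chr12:3806007-3914443 and Dnmt3b chr2:153475186-153513466, both on the plus strand. Tet1 is on chr10:62267318-62361866, Tet2 on chr3:133126643-133207354 and Tet3 on chr6:83312367-83391672, all on the minus strand. The span of an antisense gene overlaps an exon of Dnmt3a (Gm10485) and of Dnmt3b (7530422B04Rik). Whether exons of both genes overlap was not examined. Cuffdiff was run with its default settings, which do not use strand, so reads from any sequence that the exons of a pair share cannot be told apart. The low levels of Dnmt3a and Dnmt3b are uncertain to that extent.

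The E2F factors switch on S phase genes, and Dnmt1 and Uhrf1, which moved together as described below, are both used at the replication fork. Their promoters were therefore searched, with their change already known, for the E2F-type sequences TTTCGCGC, TTTGGCGC, TTTCCCGC and TTTGCCGC on both strands. RefSeq promoter windows in GRCm38.p6, from 250 bases before to 50 bases after each annotated start, matched all 7 genes with 12 windows. Among all 32851 windows 2.26% held at least 1 of the 4 sequences, with matches counted by their start so that overlapping ones count separately. Of the 12 windows 2 did, 1 of the 3 for Dnmt1 and 1 of the 2 for Uhrf1, and none of those for Dnmt3a, Dnmt3b, Tet1, Tet2 or Tet3. Of 16 S phase genes used below, 13 had a window and 7 of these held such a sequence in at least 1 window. This counts genes, unlike the share of windows above, and a gene with several windows has more chances of a match. The Dnmt1 window held a further match 33 bases after its annotated start, which is not shown. The stretches around the matches upstream of the annotated starts are shown 5′ to 3′ on the strand of the gene, with the match in capitals.
Dnmt1: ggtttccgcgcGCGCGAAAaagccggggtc
Uhrf1: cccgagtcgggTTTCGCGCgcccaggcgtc
In mm9 the Dnmt1 stretch lies at chr9:20757268-20757297, minus strand, within the noncoding part of the first exon of 1 annotated transcript, and the Uhrf1 stretch at chr17:56443540-56443569, plus strand, 810 bases downstream of the annotated start of the gene and outside its exons. A match describes the letters of these windows only, and binding of any factor was not measured.

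Dnmt1 and Uhrf1 fell in every line on differentiation, Uhrf1 far more than Dnmt1. Dnmt1 ranged from 23.6 to 38.0 FPKM in growth, with a median of 34.1 FPKM, and from 4.02 to 9.78 FPKM after differentiation, with a median of 5.33 FPKM. Uhrf1 was the highest of the 7 genes in growth, at 52.7 to 84.1 FPKM with a median of 78.1 FPKM. After differentiation it was at 1.23 to 11.8 FPKM, with a median of 2.73 FPKM. For both genes the lowest growth library lay above the highest differentiated library. The level in growth was 3.88 to 8.89 times that after differentiation for Dnmt1 (median 6.31) and 7.12 to 62.2 times for Uhrf1 (median 28.3).

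**Figure D1:**
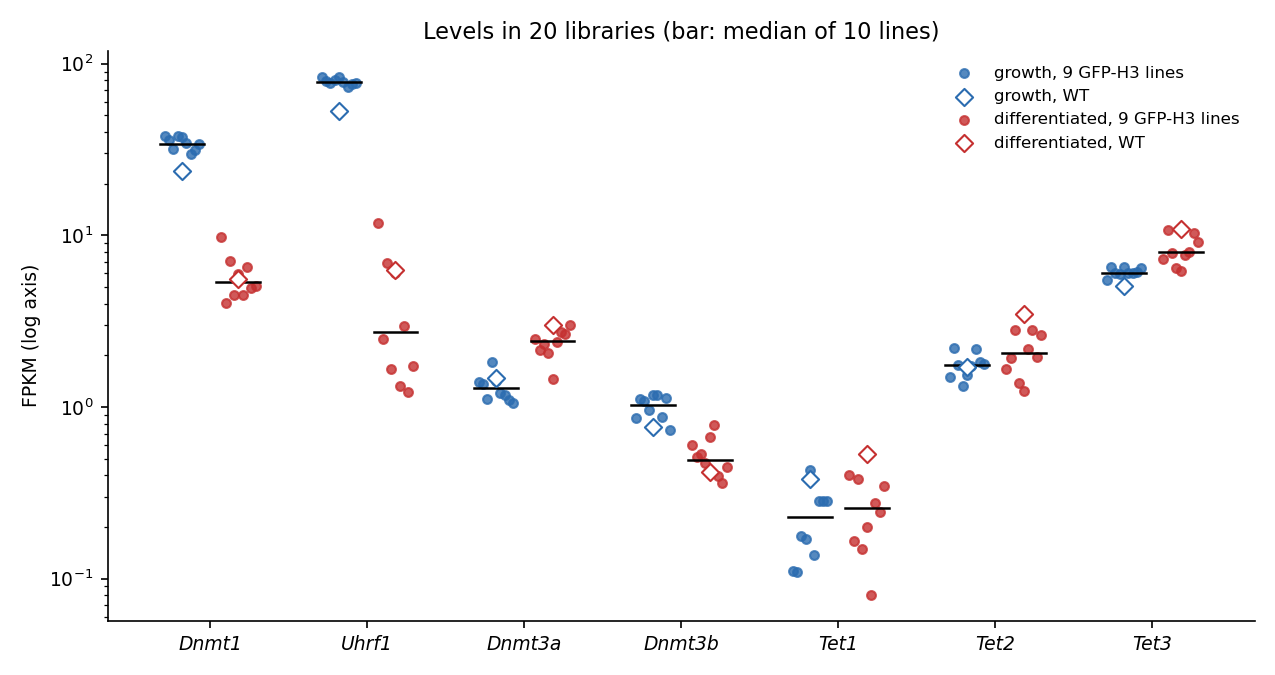
FPKM on a log axis of the 7 genes in 10 growth libraries (blue) and 10 differentiated libraries (red), with GFP-H3 lines as dots, WT as open diamonds and the median of the 10 lines as a bar. Dnmt1 and Uhrf1 separate fully between the states, Uhrf1 spreads from 1.23 to 11.8 FPKM after differentiation, and Tet1 stays below 0.54 FPKM.

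The states were compared across genes with limma on log2(FPKM + 1), a scale on which changes of genes near 1 FPKM are understated. Of the 10954 genes with a mean of at least 1 FPKM, 8.41% were called lower and 8.87% called higher after differentiation (adjusted p under 0.05 and a log2 difference of at least 1). Of the 7 genes 5 could be tested and 2 of these were called, both lower: Dnmt1 fell by 2.36 (SE 0.12, limma adjusted p = 9.81e-13) and Uhrf1 fell by 4.12 (SE 0.27, limma adjusted p = 3.31e-11) on the log2 scale. Both calls held with each line left out in turn and under every other setting tried. Fewer cells that express a gene and less RNA per cell cannot be told apart in such bulk libraries, here and in all results that follow.

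The de novo enzymes moved in opposite directions at low levels. Dnmt3a, at 1.05 to 1.84 FPKM in growth (median 1.29 FPKM) and 1.45 to 3.01 FPKM after differentiation (median 2.43 FPKM), was higher after differentiation in 10 of 10 lines. The rise was 0.56 on the log2(FPKM + 1) scale (SE 0.09, limma adjusted p = 2.41e-05), which passed the test but not the size limit, and 30.5% of all genes tested rose with an adjusted p under 0.05. It was largest in the H3mm16 line (1.05 to 3.01 FPKM) and close to absent in the H3mm7 line (1.42 to 1.45 FPKM). Dnmt3b ranged from 0.730 to 1.17 FPKM in growth (median 1.02 FPKM) and from 0.362 to 0.788 FPKM after differentiation (median 0.491 FPKM), and was lower after differentiation in 10 of 10 lines. Its mean lay below 1 FPKM, so it was tested only in the fit of all 19103 genes without that filter, where it fell by 0.39 (SE 0.06, limma adjusted p = 3.57e-05). In that fit 18.1% of genes fell with an adjusted p under 0.05, against 28.1% in the fit with the filter.

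The cofactor of these enzymes, Dnmt3l, which helps Dnmt3a and Dnmt3b in germ cells, had a mean of 0.0270 FPKM in growth and 0.124 FPKM after differentiation. Across the 10 differentiated libraries, Dnmt3b was lower where the mean log2(FPKM + 1) of the 8 muscle markers was higher (Pearson r = -0.80, Spearman rho = -0.82, n = 10; r = -0.74 without the 2 libraries farthest from the median). Over all 10 libraries it was the largest such correlation by size among the examined genes. Without the same 2 libraries that of Tet3 was larger by Pearson r (r = 0.78, rho = 0.45). After differentiation Tet3 (r = 0.68) and Dnmt3a (r = 0.61) were higher where the markers were higher, and in growth Dnmt3b had r = 0.30 (n = 10 each). The points share normalization within a library, and Dnmt3b is low enough that its correlation is a description only.

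Among the Tet genes, Tet3 was the most abundant and the only one whose change passed the test. Tet3 was at 5.03 to 6.57 FPKM in growth (median 6.05 FPKM) and at 6.21 to 10.9 FPKM after differentiation (median 7.99 FPKM). It was higher after differentiation in 9 of 10 lines, by 0.41 on the log2 scale (SE 0.09, limma adjusted p = 0.000701), the exception being H3mm7 (6.54 to 6.21 FPKM). The largest change was that of WT, from 5.03 to 10.9 FPKM, and without WT the mean change was 0.35 (limma adjusted p = 0.00246). Tet2 was at 1.32 to 2.21 FPKM in growth and 1.23 to 3.48 FPKM after differentiation, and the states overlapped. It was higher in 8 of 10 lines, by 0.19 (SE 0.12, limma adjusted p = 0.165), which did not pass. Tet1 was at 0.109 to 0.427 FPKM in growth and 0.0805 to 0.532 FPKM after differentiation, with 5 lines higher and 5 lower (0.045, limma adjusted p = 0.614 in the fit without the filter). Its lines thus went both ways, with a mean change smaller than its SE of 0.064.

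**Figure D2:**
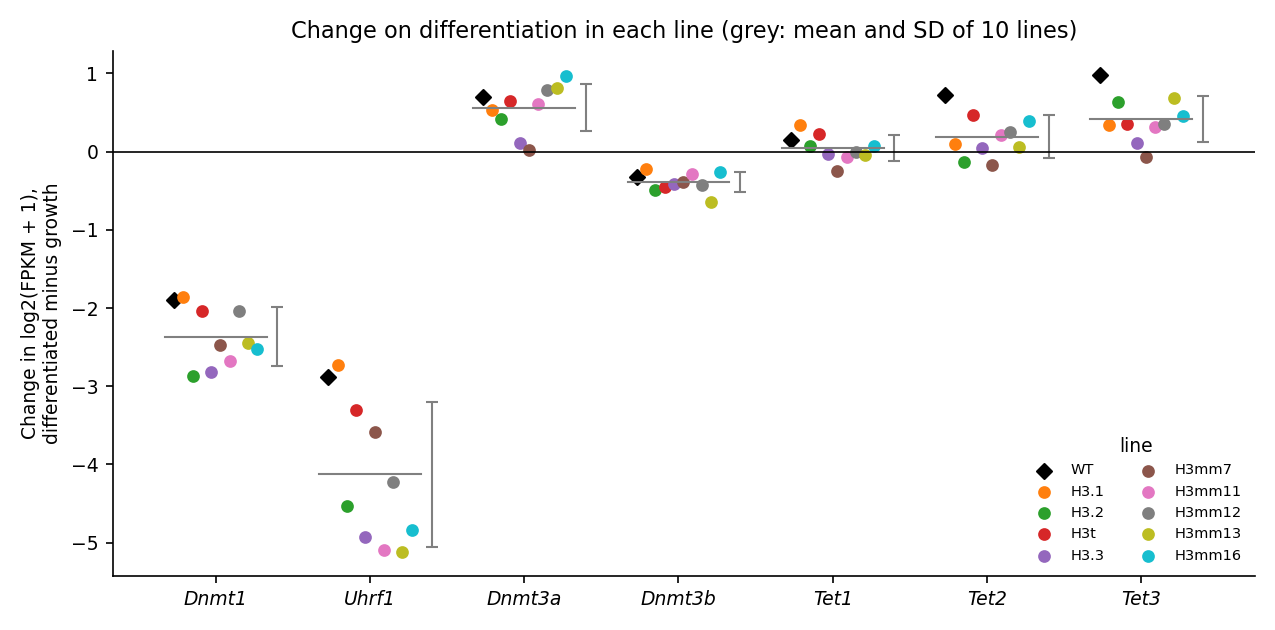
Change in log2(FPKM + 1), differentiated minus growth, of each gene in each of the 10 lines (colours, WT as a black diamond), with the mean and SD of the 10 lines in grey. All 10 lines lie below 0 for Dnmt1, Uhrf1 and Dnmt3b and above 0 for Dnmt3a, and the lines spread most for Uhrf1, from -5.12 to -2.73.

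The order of the levels differed between the states. In growth it was Uhrf1, Dnmt1, Tet3, Tet2, Dnmt3a, Dnmt3b and Tet1, and each gene differed from its neighbour within libraries (exact sign-flip permutation test over 10 lines, 42 pairs in both states, largest adjusted p of a neighbour pair 0.0194, for Tet2 and Dnmt3a). After differentiation it was Tet3, Dnmt1, Uhrf1, Dnmt3a, Tet2, Dnmt3b and Tet1. Tet3 exceeded Dnmt1 in 9 of 10 differentiated libraries (exact test, adjusted p = 0.0155), the exception being the H3.1 line. Dnmt1 exceeded Uhrf1 in 7 of 10 (exact test, adjusted p = 0.0316). Uhrf1, Dnmt3a and Tet2 did not differ from each other beyond their spread (exact test, adjusted p = 0.232 for Uhrf1 and Dnmt3a, 0.142 for Uhrf1 and Tet2, 0.109 for Dnmt3a and Tet2). Of the 42 pairs 39 passed. With the sign-flip test on 10 lines the smallest p possible is 0.00195.

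Uhrf1 and Dnmt1 kept a near constant ratio in growth and lost it after differentiation. In growth Uhrf1 was 2.11 to 2.46 times as high as Dnmt1 in FPKM in all 10 libraries, although WT had lower levels of both. After differentiation the ratio ran from 0.248 to 1.21. It was above 1 in the WT, H3.1 and H3mm7 libraries, close to 1 in the H3t library (0.986), and between 0.248 and 0.618 in the other 6.

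The summed Dnmt level was lower after differentiation in 10 of 10 lines and the summed Tet level higher in 9 of 10, H3mm7 being the exception. The FPKM sum of Dnmt1, Dnmt3a and Dnmt3b was 35.7 ± 4.60 (SD, n = 10) in growth and 8.73 ± 1.78 (SD, n = 10) after differentiation. That of Tet1, Tet2 and Tet3 was 8.01 ± 0.616 (SD, n = 10) and 10.96 ± 2.28 (SD, n = 10). The Dnmt sum was thus 3.62 to 5.65 times the Tet sum in growth and 0.519 to 1.38 times after differentiation, when it exceeded the Tet sum only in the H3.1 and H3mm7 libraries. Dnmt1 made up 91.3% to 95.0% of the Dnmt sum in growth and 58.7% to 76.1% after differentiation. The share of Dnmt3a went from 3.73% ± 0.808 to 28.4% ± 6.12 and that of Dnmt3b from 2.78% ± 0.458 to 6.14% ± 2.02 (SD, n = 10), each higher after differentiation in 10 of 10 lines. The share of Dnmt3b was thus higher while its level was lower. Because Dnmt1 made up most of the sum in growth, its fall alone raises the other shares, so these shares add little beyond that fall. The Tet shares overlapped between the states, with Tet3 at 75.2% ± 2.85 and 77.6% ± 4.42 of the Tet sum, Tet2 at 21.9% ± 2.60 and 19.9% ± 3.97, and Tet1 at 2.95% ± 1.42 and 2.51% ± 1.08 (SD, n = 10).

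**Figure D3:**
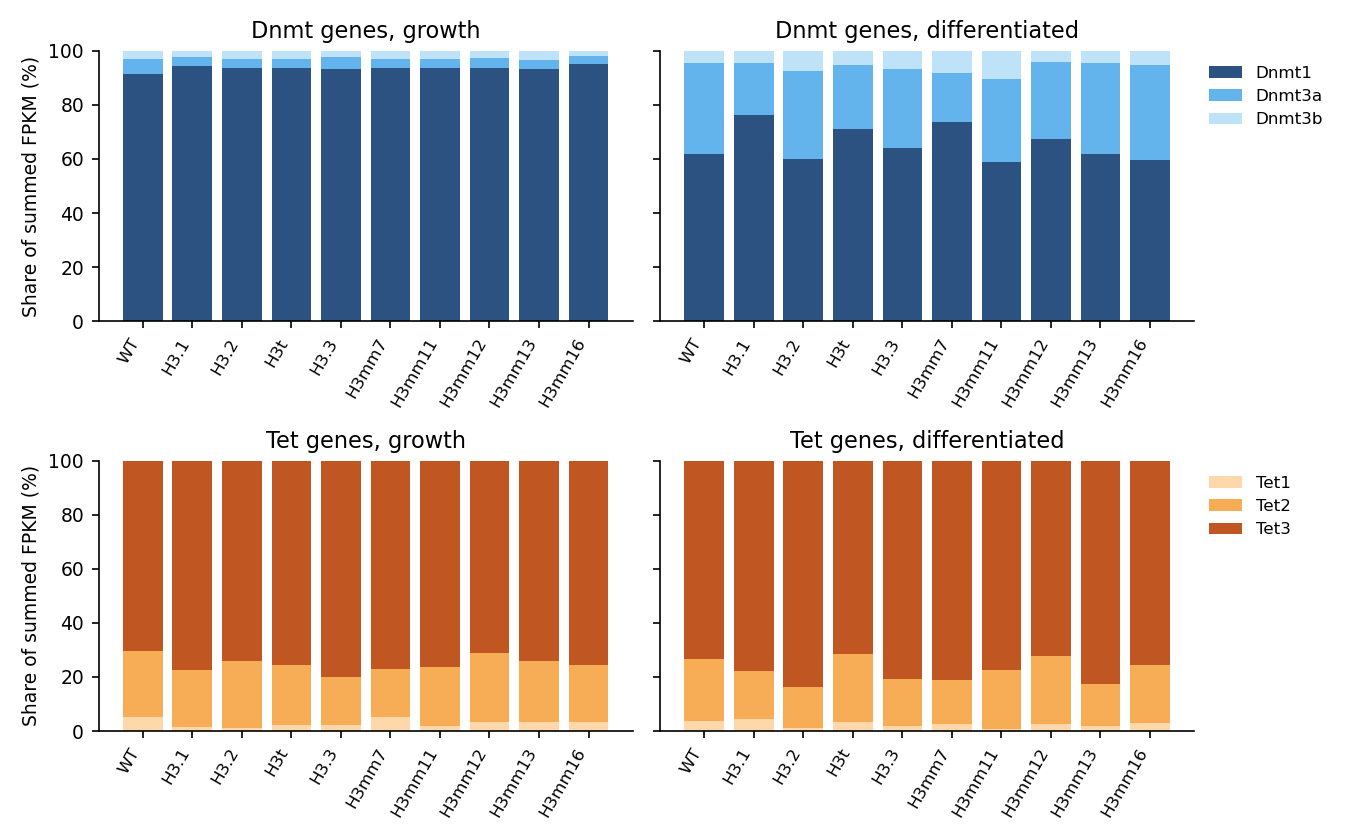
Share of each gene in the summed FPKM of the Dnmt genes (top) and the Tet genes (bottom), in percent, for each line in growth (left) and after differentiation (right). Dnmt1 takes at least 91.3% in every growth library and at most 76.1% in every differentiated library, whereas Tet3 takes 70.6% to 79.9% and 71.4% to 83.8%.

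Uhrf1 differed little between lines in growth and widely after differentiation. Among the 10 growth libraries the highest Uhrf1 value was 1.60 times the lowest, and among the differentiated libraries 9.63 times. The differentiated values were 11.8 FPKM in H3.1, 6.94 FPKM in H3t, 6.27 FPKM in WT and 6.04 FPKM in H3mm7. They were 2.97 FPKM in H3mm12, 2.48 FPKM in H3.2, 1.74 FPKM in H3mm16, 1.66 FPKM in H3.3, 1.32 FPKM in H3mm11 and 1.23 FPKM in H3mm13. Dnmt1 spread less, 2.43 times from the lowest to the highest differentiated library, with H3.1 (9.78 FPKM) and H3t (7.04 FPKM) again on top and H3.2 (4.02 FPKM) lowest. In growth WT had the lowest level of Dnmt1 (23.6 FPKM against 29.8 to 38.0 FPKM), of Uhrf1 (52.7 FPKM against 73.2 to 84.1 FPKM) and of Tet3 (5.03 FPKM against 5.52 to 6.57 FPKM). After differentiation WT had the highest Tet1, Tet2 and Tet3 values. The summed FPKM of the WT libraries is lower as well, and its part in these differences was not tested.

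H3.3-type lines were compared with H3.1/H3.2-type lines, 6 against 3, to ask whether the type of the overexpressed histone goes with the level of these genes. In growth 0.247% of 10931 genes passed an adjusted p under 0.05 and none of the 5 tested genes did, with log2 differences between -0.048 and 0.029 and unadjusted limma p-values of at least 0.790. In differentiated cells 2.5% of genes passed and again none of the 5. The largest difference was that of Uhrf1. Its values were 11.8, 6.94 and 2.48 FPKM in the 3 H3.1/H3.2-type lines and 1.23 to 6.04 FPKM in the 6 H3.3-type lines, so that the types overlapped. The difference was -1.15 (SE 0.34, limma adjusted p = 0.0737, unadjusted p = 0.00334).

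That value rested on single lines. Without H3.1 the difference of Uhrf1 was -0.72 (limma adjusted p = 0.316), without H3.2 it was -1.66 (adjusted p = 0.00995) and without H3mm7 it was -1.38 (adjusted p = 0.0289). In the fit of the 9 differentiated libraries alone, chosen after the unequal spread of the states was seen, its adjusted p was 0.378 and 1 gene of all tested passed. Dnmt1 differed by -0.29 (SE 0.18, limma adjusted p = 0.375), and by -0.59 without H3.2 (adjusted p = 0.0318). For Dnmt3a, Tet2 and Tet3 the differentiated difference was between -0.11 and 0.011. Whether the types differed more in one state than in the other was tested by the type by state interaction, which 0% of genes passed in limma (0 of 10931, with 999 at an unadjusted p under 0.05). With line as a block 80 genes passed and none of the 5. Uhrf1 had an interaction of -1.11 (SE 0.48, limma adjusted p = 0.512).

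Replication genes fell with Dnmt1 and Uhrf1. All 16 genes of a DNA replication list were called lower, against 8.41% of all genes tested. Of the 16, Cdc6 (11.6 to 0.489 FPKM) reached the mean needed for testing through its growth libraries. Among the 16 were the helicase subunits Mcm5 (72.3 to 3.58 FPKM, log2 difference -4.39) and Mcm3 (80.5 to 5.69 FPKM, -3.81). The median log2 difference of the list was -2.89, against 0.038 over all genes tested. In growth the mean log2(FPKM + 1) of this list lay between 5.62 and 5.92 in the 10 libraries. After differentiation it ran from 2.26 in H3mm13 to 3.67 in H3.1, with WT, H3mm7 and H3t at 3.34, 3.33 and 3.32 and the other lines at or below 2.87. The same 4 lines had the 4 highest Uhrf1 values. Across the differentiated libraries Uhrf1 followed the list mean closely (Pearson r = 0.99, Spearman rho = 0.96, n = 10, and r = 0.99 without the 2 libraries farthest from the median or without WT). Dnmt1 followed it less (r = 0.80, rho = 0.73, n = 10). In growth r was 0.066 for Uhrf1 and 0.065 for Dnmt1, where the list hardly varied, and 0.32 and 0.16 without WT (n = 9). The points share library and normalization, and these correlations are descriptions. The part of the replication genes in the difference between types was not tested.

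**Figure D4:**
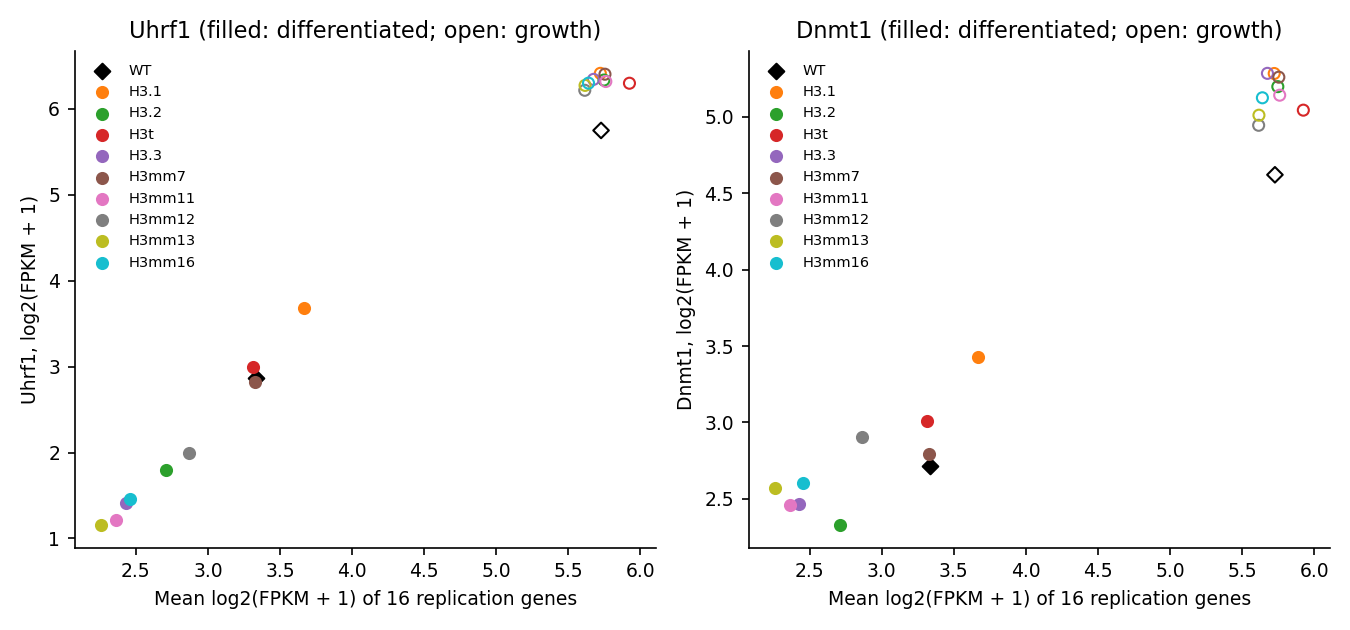
Level of Uhrf1 (left) and Dnmt1 (right), log2(FPKM + 1), against the mean log2(FPKM + 1) of 16 replication genes in each library, with differentiated libraries filled, growth libraries open and WT as diamonds. After differentiation Uhrf1 rises with the replication mean from H3mm13 (2.26) to H3.1 (3.67), and WT in growth lies below the other lines for both genes at a similar replication mean.

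The genes whose profiles over the 20 libraries were most like those of the called genes were found by the root mean square difference of mean-centred log2(FPKM + 1) values, among 10949 genes. Nearest to Uhrf1 were Cdk1, the kinase that starts mitosis (0.22), Aurkb, a kinase of chromosome segregation (0.22), and Mki67, the Ki-67 proliferation marker (0.23). Cdk1 went from 100.1 to 6.76 FPKM, Aurkb from 43.1 to 2.58 FPKM and Mki67 from 39.9 to 2.23 FPKM in the mean. Nearest to Dnmt1 were Traip, a ubiquitin ligase of the replication stress response (0.14), Fanca, a Fanconi anaemia protein (0.16), and BC030867 (0.20). These had lower levels, Traip going from 6.36 to 0.516 FPKM, Fanca from 8.20 to 1.02 FPKM and BC030867 from 7.23 to 0.494 FPKM. As a ratio of mean FPKM their change was thus larger than that of Dnmt1 (33.4 to 5.79 FPKM), since the added 1 FPKM compresses low values.

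Partners of maintenance methylation fell in part. Of 9 tested, 4 were called lower and none higher, against 8.41% and 8.87% of all genes tested, with a median log2 difference of -1.25. Hells, the chromatin remodeller needed for methylation of repeats, went from a mean of 32.0 to 2.70 FPKM (-3.18, limma adjusted p = 6.31e-12), and the replicative ligase Lig1 from 32.5 to 3.85 FPKM (-2.86, limma adjusted p = 2.99e-12). The Uhrf1 paralog Uhrf2 stayed at 19.8 and 17.7 FPKM (-0.15, limma adjusted p = 0.357). Hdac1, a deacetylase that binds Dnmt1, did not pass (-1.25, limma adjusted p = 0.0593) although it was lower after differentiation in 10 of 10 lines. Its WT values were 4.00 and 1.36 FPKM, against 70.6 to 106.8 FPKM and 29.2 to 56.3 FPKM in the GFP-H3 lines. Without WT the fall of Hdac1 was -1.27 (limma adjusted p = 4.34e-08), and with line as a block its adjusted p was 3.17e-07. Hdac1 and Uhrf2 were singled out after their values were seen.

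Of 9 de novo partners tested none was called, and 4 fell with an adjusted p under 0.05. Of all genes tested 8.41% were called lower, 8.87% were called higher and 28.1% fell by adjusted p alone. In a list this small, none called is close to those shares. The most abundant were the KRAB zinc finger cofactor Trim28 (121.4 to 62.4 FPKM, -0.96, limma adjusted p = 4.16e-07) and the demethylase Kdm1a (45.1 to 45.7 FPKM, 0.017, adjusted p = 0.867). Of 8 methyl-CpG readers none was called. At an adjusted p under 0.05, 2 were lower and 2 higher, against 28.1% and 30.5% of all genes. The most abundant, Mbd3 (-0.49, limma adjusted p = 0.0577) and Mbd2 (0.026, adjusted p = 0.860), did not pass. Mbd4 (-0.97) and Zbtb4 (1.00, just under the limit) crossed the size limit under other pseudocounts, and were named after their values were seen. The count of readers called higher was also 1 after median centring and without H3.2, H3.3, H3mm7, H3mm11, H3mm12 or WT. That of readers called lower was also 1 after quantile normalization and without H3mm7. That none was called thus depended on the setting. Of 12 genes of demethylation and base excision, 1 was called lower and 2 higher, a share of each direction to be read against the 8.41% and 8.87% of all genes. The count of lower genes was 2 without WT, without H3mm7, without H3mm12 and with a pseudocount of 0.01 FPKM, when Parp1 (-0.97), named after its values were seen, passed the size limit. The gene called lower was the DNA glycosylase Neil3, which went from 9.22 to 0.820 FPKM (-2.58). Neil3 reached the mean of 1 FPKM needed for testing through its growth libraries, so no p-value of it is given. Its relative Neil1 went from 1.37 to 4.94 FPKM (1.29, limma adjusted p = 3.82e-07) and the stress protein Gadd45a from 18.2 to 353 FPKM (4.01, adjusted p = 1.64e-09).

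Of 8 Tet partners and cofactor suppliers 1 was called higher, a count close to the 8.87% of all genes tested. It was Ogt, the O-GlcNAc transferase that binds Tet proteins, from 15.8 to 34.6 FPKM (1.06, limma adjusted p = 3.77e-06). Without H3mm7 Ogt fell under the size limit. Of 11 genes of methyl donor supply 2 were called lower, against 8.41% of all genes tested, a small count to be read as a description. They were the folate enzymes Shmt1 (15.3 to 5.04 FPKM, -1.67, limma adjusted p = 4.44e-06) and Mthfd1 (46.3 to 20.5 FPKM, -1.16, adjusted p = 2.54e-07). Without WT, and with line as a block, 3 were called lower. The addition was Ahcy, which clears S-adenosylhomocysteine and was named after its values were seen (-1.33, limma adjusted p = 0.174, and -1.43, adjusted p = 5.44e-07, without WT). Of 12 germline genes that DNA methylation is known to silence in somatic cells, 2 had a mean of at least 1 FPKM and could be tested. Taf7l, a testis TFIID subunit, went from at most 0.02 FPKM in growth to 7.15, 6.23 and 7.62 FPKM in the H3.3, H3mm7 and H3mm11 lines and 0 to 0.63 FPKM in the others. Taf7l reached the mean of 1 FPKM needed for testing only through those 3 libraries, so it had to differ and no test of it is given. With any 1 of the 3 left out it was not tested. Sycp3 was at a mean of 0.621 FPKM in growth and 1.42 FPKM after differentiation. It did not exceed 0.903 FPKM in growth and reached the mean of 1 FPKM through its differentiated libraries, so no test of it is given either. The other 10 germline genes, with Dazl and Ddx4 among them, did not exceed 0.661 FPKM in any library.

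**Figure D5:**
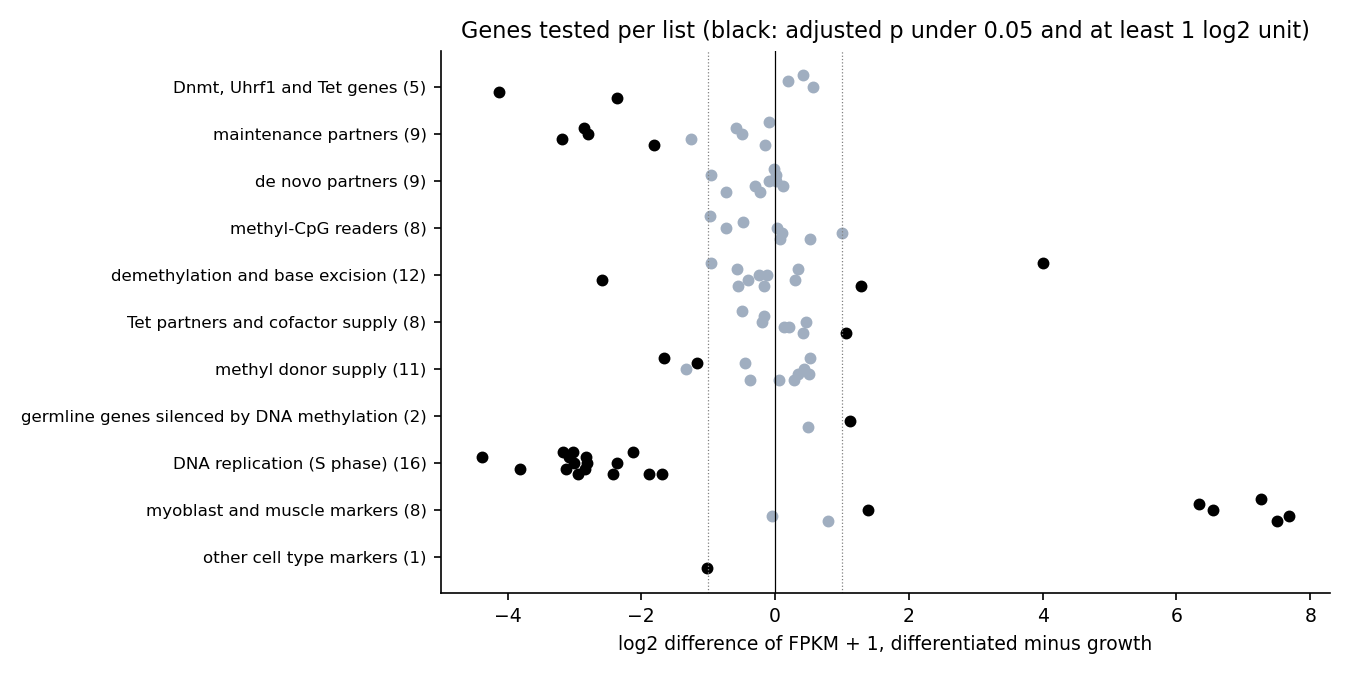
Log2 difference of FPKM + 1, differentiated minus growth, of each tested gene in each list (number tested in brackets), with called genes in black, others in grey and the size limit of 1 as dotted lines. All 16 replication genes and 4 of 9 maintenance partners are called lower, as are Dnmt1 and Uhrf1. No de novo partner and no methyl-CpG reader is called. In lists this small, that is close to the 8.41% lower and 8.87% higher of all genes.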

How the data were processed

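Per the labels and the methods, the authors sequenced mRNA, aligned reads to mm9 with TopHat2 2.0.8 and deposited FPKM values per gene from Cufflinks 2.0.1 and Cuffdiff at default settings. Whether WT and GFP-H3 libraries were scaled together is not given in the sources used here. Columns headed H3mmT were taken as H3t. The 3′-seq tables hold histone genes only and were not used. Here log2(FPKM + 1) was fitted with limma 3.58.1 (trend and robust, R 4.3.3) over genes with a mean of at least 1 FPKM, with Benjamini-Hochberg adjustment over all of them. Calls needed an adjusted p under 0.05 and a log2 difference of at least 1. Growth and differentiated libraries were paired by the line in their labels. The deviations of each pair from the state means correlated at 0.877 in WT and at 0.272 to 0.475 in the GFP-H3 lines. In every line the best match was the library of the same line. The main limma fits did not use this pairing. Levels of gene pairs were compared by exact two-sided sign-flip tests with Python 3.11.15. The fits were tested on simulated data. Genes named from lists were the 2 with the largest called change in each direction or, with none called, the 2 most abundant. For likeness the 3 nearest genes were named. The genes and lists were chosen with earlier results of these data known, so p-values of change adjusted over the 7 genes or the family shares alone are not given. Those of the level order, adjusted over 42 pairs of these genes, are given and carry the same limit. Alternatives were pseudocounts of 0.1 and 0.01 FPKM, no filter, a filter of 5 FPKM, quantile normalization, median centring, limma without trend, line as a block, each line left out, and each state alone.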

Additional observations from a re-analysis of the deposited data

Results flagged for a closer look

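Values were screened within each state over the 10 lines and over the 6 H3.3-type lines for a library far from the rest, by the gap to its neighbour as a share of the whole range. Chance alone marks about 1 in 20 groups, and of the 74 overlapping groups screened 4 were marked. In growth the WT library was lowest and far from the other 9 lines for Uhrf1 (gap 0.703 of the range), for Dnmt1 (0.488) and for the share of Dnmt1 in the Dnmt sum (0.494, at 91.3%). The H3mm16 line had the highest share of Dnmt1 in growth among the 6 H3.3-type lines (gap 0.77 of the range, at 95.0%).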

How the results depend on the processing

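The fall of Dnmt1 (log2 difference -2.56 to -2.31, limma adjusted p at most 6.05e-09) and Uhrf1 (-4.57 to -4.02, at most 5.53e-08) and the rise of Tet3 (0.35 to 0.47, at most 0.00296) kept their direction and an adjusted p under 0.05 under all 18 alternatives, and that of Dnmt3a (0.47 to 0.87, at most 0.000254) under the 17 in which it was tested. Line as a replicate block changed no call of the 5 genes tested with it (Tet2 limma adjusted p 0.0781), but raised the genes passing the interaction from 0 to 80. Dnmt3b and Tet1, below the filter, were not fitted with the block. The interaction count was 5 without a filter, 1 with a filter of 5 FPKM, 4 after quantile normalization and 0 to 2 with a line left out. Genes passing between types in growth numbered 56 and 81 with pseudocounts of 0.1 and 0.01 FPKM, 16 with the 5 FPKM filter, 159 in growth libraries alone and 2 to 28 with a line left out, against 27. In differentiated cells they numbered 140 without a filter, 149 with the 5 FPKM filter, 1 in differentiated libraries alone and 8 (without H3.1) to 772 (without H3.2) with a line left out, against 273. Of the 7 genes, 0 to 2 then passed and 0 to 1 were called lower. Small type differences changed sign: with a line left out, in growth Dnmt1 ran from -0.11 to 0.0068, Dnmt3a from -0.068 to 0.027 (0.0086 after median centring), Tet2 from -0.13 to 0.051 and Tet3 from -0.025 to 0.083, in differentiated cells Dnmt3a from -0.042 to 0.10, Tet2 from -0.17 to 0.092 and Tet3 from -0.21 to 0.047, and for the interaction Dnmt3a from -0.068 to 0.12 and Tet2 from -0.15 to 0.15 (0.13 after quantile normalization). The mean change of Tet1 over lines was -0.050 after quantile normalization. The cause was not tested.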
